A study of Oryctolagus cuniculus with 6 samples.

Results

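The cytosolic ribosomal proteins are described here in cultured rabbit limbal stem cells (LSCs). They were taken as the genes of the deposited count table whose symbol reads RPL, RPS or RPLP followed by a number, with the usual suffixes for paralogs. This gave 72 of the 22190 genes in the table, 29 of the small subunit and 43 of the large subunit. Symbols that begin with MRPL or MRPS, which name mitochondrial ribosomal proteins, are outside this pattern.

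RNA-seq was performed on primary LSCs of rabbit (Oryctolagus cuniculus) that grew out of limbal explants, in 3 libraries of a fresh group and 3 of a preconditioned group. Corneas of the preconditioned group were kept in liquid nitrogen for 1 week in a cryomedium that contained 10 ng/mL of the inflammatory cytokine IL-1β, and the fresh group had neither freezing nor IL-1β. Effects of freezing and of IL-1β therefore cannot be told apart. The sources used here give no age, sex or strain of the animals for these libraries and do not say which animal or culture each library came from, so that p-values measure only the spread between these libraries. In bulk libraries of this kind, fewer cells of a type and less RNA per cell cannot be told apart.

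Ribosomes are built from ribosomal RNA and a fixed set of ribosomal proteins. The small subunit reads the mRNA, and the large subunit joins the amino acids and passes the chain through its exit tunnel. The mRNAs of ribosomal proteins are abundant, start with a run of pyrimidines called the TOP motif, and are translated under the control of mTORC1 and LARP1. In the cornea, limbal stem cells renew the epithelium, and growing cells in general spend much of their transcription on ribosomes.

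The libraries held 31952352 to 34327534 counts on genes, and edgeR's TMM factors ran from 1.06 to 1.07 for fresh and from 0.914 to 0.965 for preconditioned libraries. Levels of 1 gene between libraries are given as CPM, the scaled count customary in RNA-seq, on the TMM-scaled library size, and levels of different ribosomal protein genes are compared as FPKM, which the authors scaled by gene length and by the total count. Sums over a list are of CPM, and the shares held by near-identical copies of a protein are of counts. None of the 8 limbal and corneal markers found passed edgeR's test, and their summed CPM overlapped (11447 to 17358 fresh, 10685 to 16950 preconditioned). KRT5 averaged 9601 CPM (fresh) and 9320 CPM (preconditioned), while the groups did not overlap for TP63 (mean 237 CPM fresh, 139 CPM preconditioned) and EPCAM (82.9 CPM fresh, 118 CPM preconditioned). KRT5 held most of the sum in every library. KRT3 varied widely, at 961, 2655 and 409 CPM in the fresh libraries and 801, 239 and 697 CPM in the preconditioned libraries. The groups overlapped for KRT3, KRT15, KRT19, PAX6 and CDH1. KRT14 and KRT12 had no gene of that symbol in the table analysed here. Of the 8 markers of stromal fibroblasts and keratocytes, COL1A1 passed the test, at 56.8, 109 and 108 CPM in the fresh libraries and 537, 693 and 505 CPM in the preconditioned libraries. The summed CPM of all 8 was 284 to 693 in the fresh libraries and 835 to 1563 in the preconditioned libraries, and that of the 7 without COL1A1 overlapped (228 to 585 fresh, 331 to 871 preconditioned). The 5 melanocyte markers summed to 0.348 to 0.410 CPM (fresh) and 0.517 to 2.70 CPM (preconditioned), with PMEL, MLANA and TYR averaging at most 0.053 CPM in either group and TYRP1 0.236 and 1.44 CPM. The 4 leukocyte markers summed to 94.8 to 130.3 CPM (fresh) and 122 to 304 CPM (preconditioned), with group means of 107 and 236 CPM for CD68 and of 0.339 and 0.691 CPM for PTPRC. CD68 held most of this sum, and the groups overlapped for CD68, PTPRC and AIF1. They did not overlap for CD74, at 0.551, 0.113 and 0.656 CPM (fresh) and 1.16, 1.44 and 0.659 CPM (preconditioned). The 4 endothelial markers summed to 2.67 to 3.13 CPM (fresh) and 1.07 to 13.0 CPM (preconditioned), with group means of 2.58 and 6.22 CPM for PECAM1 and of at most 0.129 CPM for VWF and KDR. None of the 6 of these 13 markers that had enough counts to test passed edgeR's test. Summed CPM overlapped between groups for conjunctival markers (532 to 967 fresh, 394 to 1217 preconditioned) and smooth muscle markers (25.8 to 84.8 fresh, 41.3 to 108 preconditioned). KRT7 held most of the conjunctival sum, and KRT13 and KRT4 were highest in preconditioned replicate 1. KRT13 had 8.26, 20.6 and 8.78 CPM (fresh) and 61.1, 8.95 and 3.92 CPM (preconditioned). KRT4 had 2.20, 13.1 and 3.15 CPM (fresh) and 44.2, 4.73 and 1.55 CPM (preconditioned). The summed CPM of 4 proliferation genes (MKI67, TOP2A, CCNB1 and PCNA) was 362 to 524 in the fresh libraries and 122 to 330 in the preconditioned libraries. What part these differences have in the results was not tested.

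Most ribosomal protein genes had somewhat higher levels in the preconditioned group, by a similar amount, and 13 of them passed the test. Of the 72 genes, 70 passed edgeR's filter on low counts, and 65 of these had a log2 fold change above 0 (preconditioned over fresh). Their median log2 fold change was 0.52, a fold of 1.44, with an interquartile range of 0.31 to 0.60. The median over all 15029 genes tested was 0.01, and 50.5% of them lay above 0. The medians of the small and the large subunit were alike, 0.52 over 28 genes and 0.53 over 42 genes.

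At an adjusted p of at most 0.05 in edgeR's quasi-likelihood test, 13 of the 70 genes (18.6%) were higher in the preconditioned group, against 2.88% of all genes tested. No ribosomal protein gene was lower at this cutoff, against 2.2% of all genes, and 1 was lower at an unadjusted p of at most 0.05. The 13 genes were spread over the subunits, 6 of the small and 7 of the large one, with log2 fold changes of 0.47 to 0.77 and adjusted p values of 0.0287 to 0.0499 in edgeR's test. No ribosomal protein gene also reached an absolute log2 fold change of 1, which 2.29% of all genes did together with the adjusted p. At that fold, the count was 0 at an unadjusted p of at most 0.05 too, and 0 in DESeq2. At an adjusted p of at most 0.10, 45 of the 70 genes (64.3%) were higher, against 9.96% of all genes. At 0.05, 41 ribosomal protein genes were higher with DESeq2's Wald test, as were 1473 of all 22190 genes. Scaling by library size alone and limma on log2(FPKM + 1) each gave 3, with 293 and 255 of all 15029 genes higher.

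The number of genes past the cutoff in edgeR's test changed when any 1 library was left out. Without fresh replicate 1, 2 or 3, or without preconditioned replicate 2 or 3, it was 0. Without preconditioned replicate 1 it was 53, of which 52 were higher and 1, RPL7L1, was lower. The calls over all genes moved in the same way, from 433 higher and 330 lower with all libraries to 5 higher and 9 lower without fresh replicate 2, and to 1739 higher and 2153 lower without preconditioned replicate 1. The median log2 fold change of the ribosomal protein genes moved less, between 0.46 and 0.61 over the 6 fits that each left out 1 library.

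**Figure D1:**
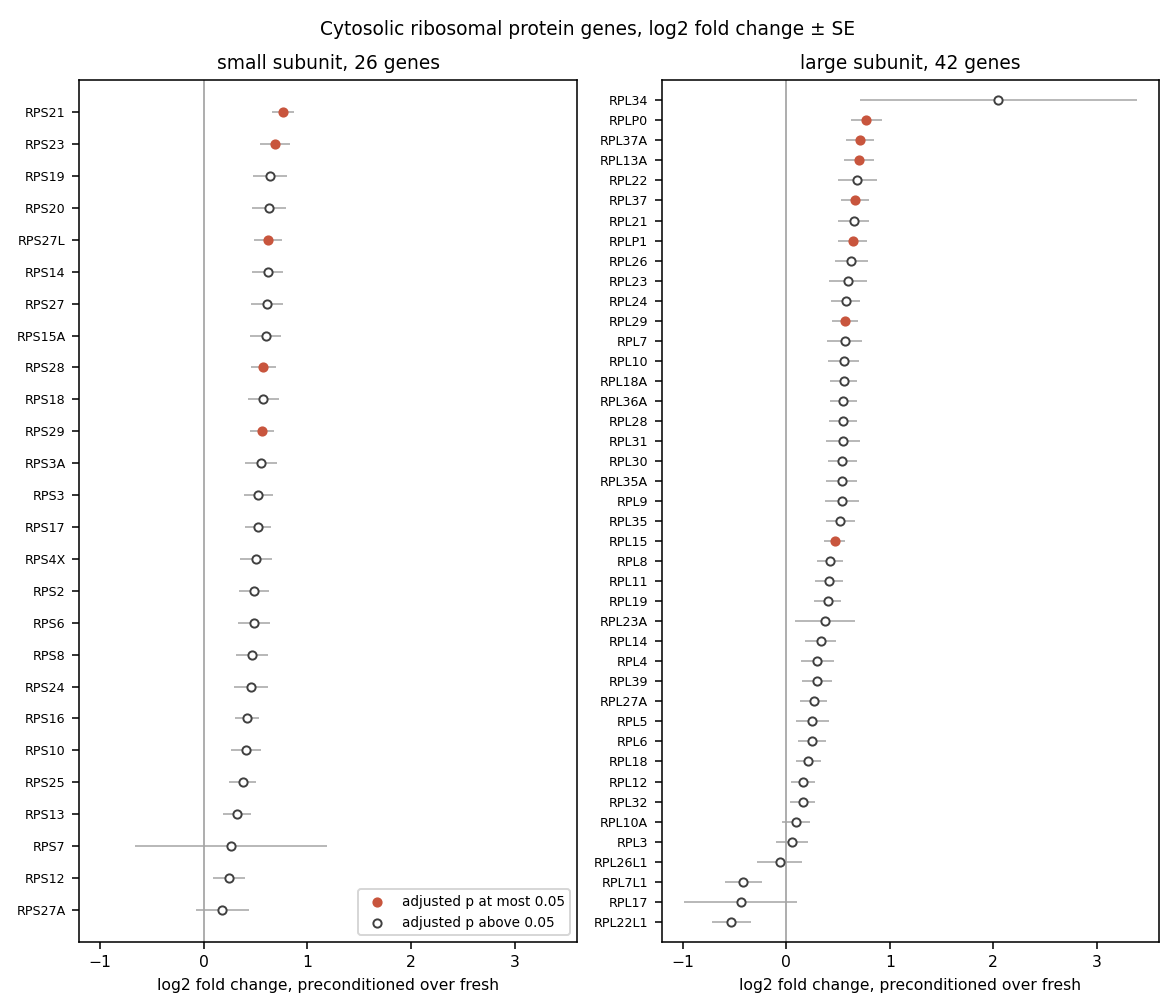
Log2 fold change (preconditioned over fresh, x axis) with its SE for 26 small-subunit and 42 large-subunit genes that were tested, sorted by value. The 12 genes among them that passed edgeR's test at an adjusted p of 0.05 have filled points, and most points lie in a narrow band around the median of 0.52.

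Judged by overlap of the libraries, 51 of the 70 genes (72.9%) had all 3 preconditioned libraries above all 3 fresh libraries, against 17.9% of all genes tested. None had them all below, against 18.8% of all genes, and 19 overlapped. Relative to each gene's fresh mean, the median log2 level of the 70 genes was 0.07, 0.06 and −0.14 in fresh replicates 1, 2 and 3, and 0.29, 0.60 and 0.66 in preconditioned replicates 1, 2 and 3. The same median over all genes tested was −0.02 at its lowest and below 0 in every library. Preconditioned replicate 1 was the lowest library of its group for 64 of the 70 genes, and fresh replicate 3 the lowest of its group for 61. Most of the genes thus differed in the same direction between libraries of 1 group as well.

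**Figure D2:**
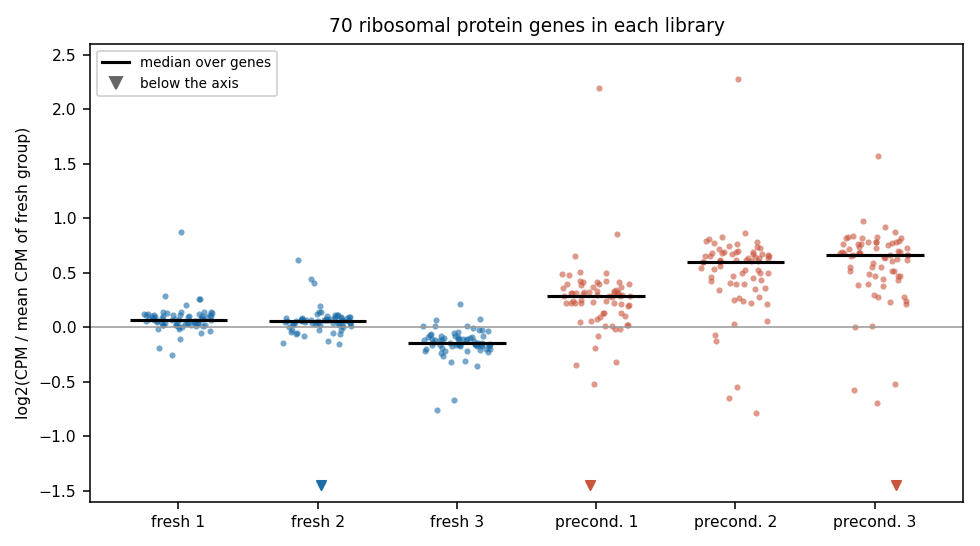
CPM of each of the 70 tested genes relative to its own fresh mean (y axis, log2 scale) in each library (x axis), with the median over genes as a bar. The medians lie between −0.14 and 0.07 in the fresh libraries and at 0.29, 0.60 and 0.66 in the preconditioned libraries, and triangles stand for single values below the axis.

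All 72 genes together held 4.61, 4.65 and 4.02% of the counts in the fresh libraries and 4.79, 5.63 and 6.16% in the preconditioned libraries. The group means were 4.43 ± 0.349% and 5.53 ± 0.688% (mean ± SD, n = 3), a difference of 1.10 percentage points. The groups did not overlap, but preconditioned replicate 1 lay only just above the fresh libraries. The small subunit took 1.78 to 2.05% in the fresh libraries and 2.13 to 2.75% in the preconditioned libraries, and the large subunit 2.25 to 2.59% and 2.67 to 3.40%. As a share of summed FPKM, the genes held 12.2, 12.2 and 10.5% in the fresh libraries and 12.1, 13.7 and 15.3% in the preconditioned libraries, and these overlapped. With 3 libraries against 3, the smallest 2-sided p of an exact permutation test is 0.1, and no test was made of these shares.

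The stalk of the large subunit, which recruits the translation factors that hydrolyse GTP, held 2 of the 13 genes past the cutoff. RPLP0, the base of the stalk, had 1886, 1916 and 1699 CPM in fresh LSCs against 2584, 3343 and 3474 CPM in preconditioned LSCs. RPLP1, which binds it as a dimer with RPLP2, had 1327, 1332 and 1292 CPM across the fresh replicates and 1706, 2175 and 2285 CPM across the preconditioned replicates. All preconditioned libraries were above all fresh libraries for both genes. The log2 fold change was 0.77 (SE 0.15) for RPLP0, with an adjusted p of 0.0408 in edgeR's quasi-likelihood test. It was 0.64 (SE 0.14) for RPLP1, with an adjusted p of 0.0486 in the same test. RPLP1 had the highest mean FPKM of all 72 genes, 3202, and RPLP0 the third highest, 2163. RPLP2 had no symbol of its own in the table.

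RPS21 had the smallest adjusted p of the small subunit and of all ribosomal protein genes. This short protein had 312, 289 and 304 CPM in the fresh libraries and 475, 517 and 541 CPM in the preconditioned libraries. Its group means were 302 ± 11.7 and 511 ± 33.04 CPM (mean ± SD, n = 3). The log2 fold change was 0.76 (SE 0.11), a fold of 1.69, with an adjusted p of 0.0287 in edgeR's quasi-likelihood test. The libraries of each group lay close together and the groups did not overlap.

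The other small-subunit genes past the cutoff included RPS23, RPS28, RPS29 and RPS27L. RPS23, which sits at the decoding centre, had 586, 558 and 521 CPM in fresh LSCs against 733, 960.3 and 981 CPM in preconditioned LSCs. Preconditioned replicate 1 was the lowest of its group and still above every fresh library. RPS28, which is mutated in some cases of Diamond-Blackfan anaemia, had 214, 178 and 199 CPM across the fresh replicates and 277, 288 and 316 CPM across the preconditioned replicates. RPS29, a small zinc-binding protein mutated in other cases of the same disease, had 409.8, 349.8 and 385 CPM in the fresh libraries and 510.3, 586 and 593 CPM in the preconditioned libraries. RPS27L, a paralog of RPS27 that p53 can induce, had 202, 193 and 156 CPM in fresh LSCs against 261, 278 and 305 CPM in preconditioned LSCs. The groups were apart in these 4 genes, with log2 fold changes of 0.56 to 0.68 and adjusted p values of 0.0439 to 0.0486 in edgeR's test.

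In the large subunit, RPL37A, RPL37, RPL13A, RPL29 and RPL15 passed the cutoff besides the stalk genes. RPL37A, a zinc-binding protein, had 549, 497 and 488 CPM across the fresh replicates and 711, 897 and 907 CPM across the preconditioned replicates. RPL37, a separate zinc-binding protein in spite of its name, had 473, 433 and 411 CPM in the fresh libraries and 586, 748 and 754 CPM in the preconditioned libraries. RPL13A, which can leave the ribosome in interferon-treated myeloid cells to repress translation, had 1222, 1227 and 1109.5 CPM in fresh LSCs against 1584, 2105 and 2096 CPM in preconditioned LSCs. In these 3 genes, preconditioned replicates 2 and 3 were nearly equal and replicate 1 lay between them and the fresh group. RPL29 had 439, 458 and 398 CPM across the fresh replicates and 565, 664 and 693 CPM across the preconditioned replicates. RPL15, the gene with the adjusted p closest to the cutoff, had 456, 464 and 500.1 CPM in the fresh libraries and 632, 679 and 654 CPM in the preconditioned libraries and was named after its values were seen. The log2 fold changes were 0.71, 0.66, 0.70, 0.57 and 0.47 in that order (SE 0.10 to 0.15), with adjusted p values of 0.0394 to 0.0499 in edgeR's test. RPL29 and RPL15 did not pass when the counts of other copies of the same protein were added, as given below.

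RPS20, the second in mean FPKM at 2178, had 1077, 1009 and 891 CPM in fresh LSCs against 1235, 1658 and 1711 CPM in preconditioned LSCs, with an edgeR adjusted p of 0.0606. RPL13A was the fourth at 2075 and RPS12 the fifth at 1920.1. RPS12, a sensor of ribosome dose in flies, had 1073, 1083 and 908 CPM across the fresh replicates and 1010.1, 1235 and 1378 CPM across the preconditioned replicates, and its groups overlapped, with a log2 fold change of 0.24 (SE 0.15). The median over the 70 tested genes was 939 FPKM, and the lowest was RPL7L1 at 29.1. Across the 70 genes, Spearman's rho of the log2 fold change was 0.38 with mean FPKM and −0.26 with gene length, as a description of genes that share the same libraries.

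Of the proteins that bind the smallest rRNA of the large subunit and, when unassembled, the p53 ligase MDM2, neither passed the cutoff. RPL5 had 766, 698 and 536 CPM in the fresh libraries and 730.4, 789 and 866 CPM in the preconditioned libraries, and its groups overlapped. RPL11 had 683, 647 and 566 CPM in fresh LSCs against 736, 867 and 925 CPM in preconditioned LSCs, with no overlap and an edgeR adjusted p of 0.0965. RPS6, the substrate of the S6 kinases downstream of mTORC1, had 1126, 1129.99 and 907 CPM across the fresh replicates and 1244, 1519 and 1652 CPM across the preconditioned replicates. Its groups did not overlap either, and its log2 fold change was 0.48 (SE 0.16) with an edgeR adjusted p of 0.0944. RPL10, which completes the catalytic site late in assembly, stood at a log2 fold change of 0.56 (adjusted p = 0.0676 in edgeR), and RPS4X, encoded on the X chromosome in placental mammals, 0.50 (adjusted p = 0.0897 in edgeR). RPL3, next to the catalytic centre, was nearly level at 1066, 1133 and 932 CPM in the fresh libraries and 917, 1063 and 1279.7 CPM in the preconditioned libraries.

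The 5 genes with a log2 fold change below 0 included RPL22L1, RPL17, RPL7L1 and RPL26L1, and none of the 5 passed the cutoff. Of these, RPL22L1, RPL7L1 and RPL26L1 are paralogs of other ribosomal proteins. RPL22L1 had 120.02, 103 and 78.5 CPM in fresh LSCs against 80.5, 58.2 and 70.04 CPM in preconditioned LSCs, with a log2 fold change of −0.53 (SE 0.19) and an edgeR adjusted p of 0.113. RPL7L1, a nucleolar assembly protein by its known role, had the lowest mean FPKM of the ribosomal protein genes tested, though not the lowest CPM. It had 84.3, 104 and 83.99 CPM across the fresh replicates and 85.97, 62.2 and 56.2 CPM across the preconditioned replicates. Its log2 fold change was −0.41 (SE 0.18), with an edgeR adjusted p of 0.174. RPL26L1 had 40.8, 39.8 and 43.2 CPM in the fresh libraries and 51.2, 39.4 and 27.8 CPM in the preconditioned libraries. The groups overlapped in all 3 genes, and preconditioned replicate 1 was the highest of its group in each.

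Set against the partner gene, 2 of these paralogs stood lower in every preconditioned library than in any fresh one. RPL22 and RPL22L1 can replace each other in the large subunit, and RPL22 represses RPL22L1. Per 100 FPKM of RPL22, RPL22L1 stood at 33.3, 29.8 and 27.7 in the fresh libraries and 19.5, 10.9 and 10.8 in the preconditioned libraries. The mean ratio went from 30.3 ± 2.81 to 13.7 ± 5.02 (mean ± SD, n = 3). With its 2 LOC copies counted in, the gene RPL22L1 held 53.9 to 59.3% of that protein's counts in every library. RPL22 itself had 337, 324 and 265 CPM in fresh LSCs against 385, 499 and 607 CPM in preconditioned LSCs, with an edgeR adjusted p of 0.0686. RPL7L1 stood at 3.58, 4.49 and 4.49 in the fresh libraries and 3.23, 1.89 and 1.51 in the preconditioned libraries per 100 FPKM of RPL7. All preconditioned ratios were below all fresh ratios in both pairs, and no test was made of these ratios, whose smallest exact p is 0.1. RPL7 had 1284, 1259.5 and 1018 CPM across the fresh replicates and 1451, 1792 and 2021 CPM across the preconditioned replicates.

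In the other paralog pairs with enough counts to test, the ratios overlapped. RPL26L1 stood at 4.903, 4.78 and 5.99 in the fresh libraries and 5.17, 2.95 and 2.03 in the preconditioned libraries per 100 FPKM of RPL26, and preconditioned replicate 1 lay among the fresh libraries. RPL26 itself had a log2 fold change of 0.63 and RPL36A of 0.55, with adjusted p values of 0.0577 and 0.0547 in edgeR's test. RPL36AL stood at 18.02, 18.8 and 25.7 in the fresh libraries and 24.6, 16.9 and 14.5 in the preconditioned libraries per 100 FPKM of RPL36A. RPS27L, which passed the cutoff by itself, stood at 16.4, 15.4 and 13.6 in the fresh libraries and 17.6, 14.4 and 14.3 in the preconditioned libraries per 100 FPKM of RPS27. RPS27 had a log2 fold change of 0.61 (SE 0.15), close to the 0.62 of RPS27L. The muscle paralog RPL3L had 4, 4 and 3 in the fresh libraries and 8, 7 and 7 in the preconditioned libraries (counts), which is too few to test, although its ratio to RPL3 was higher in each preconditioned library than in any fresh library. RPL10, RPS4X and RPL39 had no paralog in the table under the symbols looked for.

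**Figure D3:**
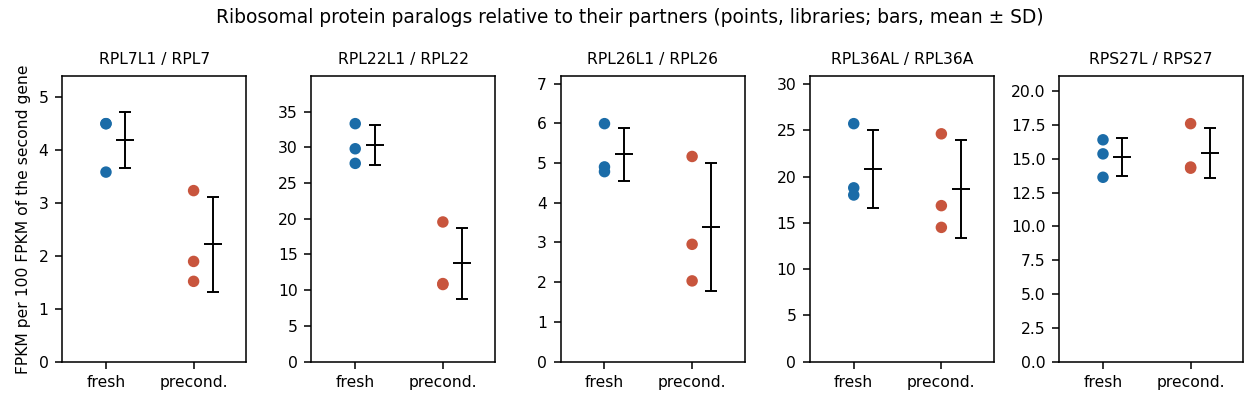
FPKM of 5 ribosomal protein paralogs per 100 FPKM of their partner (y axis) in each library, with the group mean ± SD beside the points. RPL22L1 against RPL22 and RPL7L1 against RPL7 are lower in every preconditioned library than in every fresh library, and the other 3 pairs overlap.

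Many ribosomal proteins had further genes in the table that carry only an identifier beginning with LOC and the description of the same protein. Such copies can be functional duplicates or processed pseudogenes, and near-identical copies can share reads, so that the split of reads between them is uncertain. There were 260 LOC genes described as the protein of 1 of the 72, for 60 of these proteins, and 41 described as other cytosolic ribosomal proteins. The first kind held 0.521 to 0.548% of the counts in the fresh libraries and 0.530 to 0.798% in the preconditioned libraries. For 32 of the 60 proteins, the gene with the symbol held over 90% of the summed counts in every library. The symbol's share spanned a median of 1.55 percentage points over the 6 libraries, but it spanned more than 20 for 7 proteins.

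For 6 of these 7, the split of the counts between the copies differed by more than 10 percentage points between libraries of 1 group, while for RPL39 it differed mainly between the groups. RPL34 was the most extreme, with a symbol share of 49.97, 0.204 and 36.4% in the fresh libraries and 99.4, 84.1 and 50.7% in the preconditioned libraries. Its CPM was 209, 0.788 and 132 in the fresh libraries and 521, 551 and 338 in the preconditioned libraries. The gene had nearly no counts in fresh replicate 2, while LOC127489420 held 98.8% of the protein's counts there. The log2 fold change of RPL34 was the highest of the 70 genes, 2.05, but with an SE of 1.34 and an edgeR adjusted p of 0.337. With the copies summed, RPL34 had a CPM of 417, 385 and 361 over the fresh libraries and 523, 658 and 669 over the preconditioned ones. The summed log2 fold change was 0.67 (SE 0.14, adjusted p = 0.04304 in edgeR), and the groups did not overlap.

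RPS7, which can also bind MDM2, showed the same in the preconditioned group. Its symbol share was 58.3, 43.1 and 54.6% in the fresh libraries and 85.8, 56.5 and 2.17% in the preconditioned libraries. In preconditioned replicate 3, LOC127485447 held 84.4% of the counts and the gene RPS7 dropped to 13.2 CPM, from 333 and 316 in the other preconditioned libraries. Summed over copies, the CPM was 378, 382 and 304 over the fresh libraries and 387, 561 and 613 over the preconditioned ones, with all preconditioned libraries above the fresh ones. The summed log2 fold change was 0.55 (SE 0.19), with an edgeR adjusted p of 0.1095.

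RPL17, which lines the exit tunnel, lost its negative sign when the copies were summed. Its symbol share was 74.7, 98.7 and 81.3% in the fresh libraries and 26.8, 40.9 and 70.5% in the preconditioned libraries. The log2 fold change went from −0.44 (SE 0.54) to 0.34 (SE 0.25) with the copies. Summed or not, it did not pass the test.

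RPS27A, which is made as a fusion with ubiquitin, had a symbol share of 79.6, 79.2 and 80.01% in the fresh libraries and 32.8, 46.1 and 77.3% in the preconditioned libraries. Its own CPM was 57.3, 58.4 and 53.3 in the fresh libraries and 39.3, 67.1 and 84.7 in the preconditioned libraries, and the groups overlapped. With LOC127486160 and LOC100346213 added, the CPM was 71.96, 73.7 and 66.5 over the fresh libraries and 120.02, 146 and 109.8 over the preconditioned ones. The summed log2 fold change was 0.83 (SE 0.13), with an adjusted p of 0.03202 in edgeR's quasi-likelihood test. For the gene with the symbol alone it was 0.18 (SE 0.26). LOC127486160 had 3.36, 4.08 and 4.02 CPM in the fresh libraries and 65.6, 58.2 and 7.31 CPM in the preconditioned libraries. RPL39, a very short protein of the exit tunnel, had a share of 90.7, 97.6 and 93.5% in the fresh libraries and 76.7, 73.95 and 75.4% in the preconditioned libraries, lower in each preconditioned library than in any fresh library. Its log2 fold change was 0.30 (SE 0.15) alone and 0.62 (SE 0.15, adjusted p = 0.0575 in edgeR) with the copies. RPL23A, at the mouth of the tunnel, had a share of 57.4, 70.3 and 40.1% in the fresh libraries and 76.05, 61.2 and 36.96% in the preconditioned libraries and 31 LOC genes, and its groups overlapped with or without them.

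**Figure D4:**
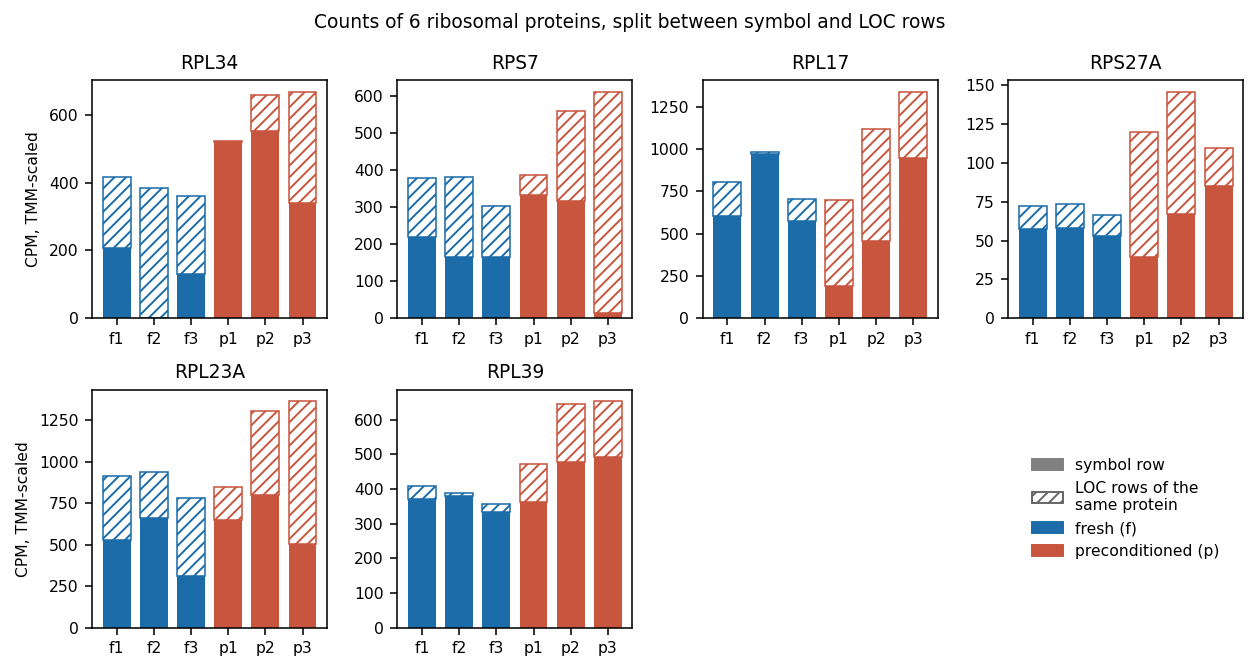
CPM (y axis, TMM-scaled) of 6 of the 7 proteins whose symbol share spanned more than 20 percentage points, in fresh (f) and preconditioned (p) libraries. Solid bars show the gene with the symbol and hatched bars the LOC genes of the same description, and in RPL34 and RPS7 the split varies between libraries of 1 group more than the total does.

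After summing, 4 of these 7 proteins (RPL34, RPS7, RPS27A and RPL39) had no overlap between groups, and 55 of the 70 genes in all, against 17.9% of all genes in the fit with copies summed. In that fit 12 of the 70 were higher at an adjusted p of at most 0.05 in edgeR's test, against 2.98% of all genes. RPL34 and RPS27A joined them. Genes that left included RPL29 and RPL15, with summed log2 fold changes of 0.39 and 0.30 and adjusted p values of 0.0943 and 0.104 in edgeR's test. RPL29 and RPL15 each had a LOC copy that passed the test as lower. LOC100350215, described as an L29-like protein, had 37.9, 44.8 and 36.6 CPM in the fresh libraries and 2.16, 3.33 and 2.799 CPM in the preconditioned libraries. LOC100358370, described as L15, had 95.3, 76.3 and 45.2 CPM in fresh LSCs against 13.2, 16.5 and 14.9 CPM in preconditioned LSCs. These LOC genes were named after their values were seen.

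Of the 301 LOC genes, 213 were tested, with a median log2 fold change of 0.43. In edgeR's test, 9 of them (4.23%) passed both the adjusted p of at most 0.05 and the absolute log2 fold change of 1, against 2.29% of all genes. The 4 higher ones were described as L38-like, L5, L17-like and L39, and the 5 lower ones as L27-like, L3-like, L29, L29-like and L15. The lowest log2 fold change, −4.24, was that of LOC100348521, described as L3-like, at 6.26, 12.8 and 6.45 CPM across the fresh replicates and 0.426, 0.416 and 0.494 CPM across the preconditioned replicates. LOC100341713, described as L5, had 146, 208 and 168 CPM in the fresh libraries and 294, 369 and 387 CPM in the preconditioned libraries, and the summed log2 fold change of L5 was 0.45 (SE 0.15) against 0.25 for the gene with the symbol. Among proteins that had LOC genes but no symbol, LOC100354218 (L27) had 344, 345 and 428 CPM in fresh LSCs against 635, 631 and 562 CPM in preconditioned LSCs, with an edgeR adjusted p of 0.0389, and LOC100354898 (L7a) had 730.3, 781 and 687 CPM across the fresh replicates and 851, 1035 and 1064 CPM across the preconditioned replicates. These LOC genes too were picked out by their values.

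RPS9 could not be read from the table. It had 3, 2 and 5 in the fresh libraries and 1, 1 and 5 in the preconditioned libraries (counts), at or near the floor of 3 counts, and no LOC gene carried its description. This protein is a core part of the small subunit.

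Subunits whose names fall outside the pattern lay in the same direction. RPSA, also known as a laminin receptor precursor, had 1027, 1064 and 1024 CPM in the fresh libraries and 1385, 1668 and 1545 CPM in the preconditioned libraries, with a log2 fold change of 0.56 (SE 0.12) and an adjusted p of 0.0458 in edgeR's test. RACK1, a signalling scaffold on the small subunit, had 1539.8, 1589.9 and 1396 CPM in fresh LSCs against 1707, 2073 and 2145 CPM in preconditioned LSCs. FAU, made as a fusion with a ubiquitin-like protein, had 297, 274 and 285 CPM across the fresh replicates and 337, 377 and 381 CPM across the preconditioned replicates. The groups were apart in these 3 genes and overlapped in RPL36AL. The median log2 fold change of the 5 was 0.39. Of the 5, 4 had no overlap between groups and 1 passed the test as higher, against 17.9% and 2.88% of all genes.

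Of the 19 other mRNAs with a TOP motif listed, mainly of translation factors, 16 had a log2 fold change above 0, the median was 0.22, and 2 passed edgeR's test as higher, against 2.88% of all genes. In 10 of the 19 every preconditioned library was above every fresh library (17.9% of all genes), and in EIF3A, HNRNPA1 and NPM1 every one was below (18.8% of all genes). EIF4A2, an RNA helicase of translation initiation, had 252, 244 and 217 CPM in the fresh libraries and 365, 537 and 549 CPM in the preconditioned libraries and was the only one also past a log2 fold change of 1, at 1.03 (SE 0.18, adjusted p = 0.0373 in edgeR). EIF2S3, a subunit of the factor that brings the initiator tRNA, rose by a log2 fold change of 0.57 (adjusted p = 0.0422 in edgeR). TPT1 had 1799, 1812 and 1607 CPM in fresh LSCs against 2233, 2628 and 2690.2 CPM in preconditioned LSCs, with an edgeR adjusted p of 0.0547. None of the 19 was lower at the cutoff.

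Genes that make ribosomal RNA and assemble the subunits lay mostly in the opposite direction. Over RNA polymerase I and its factors and the assembly factors of both subunits, 65 of 73 genes tested had a log2 fold change below 0, with a median of −0.44. In edgeR's test 6 of the 73 (8.22%) were lower at an adjusted p of at most 0.05, against 2.2% of all genes, and none was higher. The groups did not overlap in the lower direction for 34 of them (46.6%), against 18.8% of all genes, and in the higher direction for 1, WDR12. POLR1A, the largest subunit of RNA polymerase I, had 27.3, 38.5 and 37.2 CPM across the fresh replicates and 17.7, 11.2 and 9.88 CPM across the preconditioned replicates, with a log2 fold change of −1.41 (SE 0.26, adjusted p = 0.0388 in edgeR). BMS1, a GTPase of early small-subunit assembly, had 48.8, 54.8 and 56.2 CPM in the fresh libraries and 33.1, 21.97 and 22.2 CPM in the preconditioned libraries and a log2 fold change of −1.05 (SE 0.18, adjusted p = 0.03804 in edgeR). The others were POLR1B at −0.91, and in large-subunit assembly MDN1 at −0.96, NOP2 at −0.85 and DDX21 at −0.69.

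In none of these 6 genes did the groups overlap, and preconditioned replicate 1 was nearest to the fresh group in each. The genes next by p in the RNA polymerase I list (TCOF1) and in the small-subunit list (NAT10 and UTP4) missed the cutoff. TCOF1, which links RNA polymerase I to ribosomal DNA, differed by a log2 fold change of −1.22, NAT10 by −0.94 and UTP4 by −0.67, with adjusted p values of 0.0799, 0.0532 and 0.05901 in edgeR's test. Relative to the fresh mean, the median log2 level of the 73 genes was −0.07, 0.03 and 0.03 in the fresh libraries and −0.09, −0.61 and −0.66 in the preconditioned libraries. The median of preconditioned replicate 1 was below those of the fresh libraries but nearer to them than to the other preconditioned libraries, and that of the ribosomal protein genes was 0.29 there. Medians of the 4 proliferation genes were 0.37, −0.17 and −0.24 in the fresh libraries and −0.57, −2.14 and −1.84 in the preconditioned libraries, and their part in these values was not tested. None of the 4 passed the test. As with the ribosomal protein genes, no gene of the lists of ribosome production (other subunits, TOP mRNAs, RNA polymerase I, assembly and regulators) passed without fresh replicate 1, 2 or 3 or without preconditioned replicate 2 or 3, while 55 of the 117 genes then tested were lower and 12 higher without preconditioned replicate 1. At that setting 13.9% of all genes were lower and 11.2% higher.

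Of 20 regulators and dedicated chaperones tested, 2 were lower and none was higher in edgeR's test, against 2.2% and 2.88% of all genes. LARP1, which binds TOP mRNAs, had 203, 225 and 221 CPM in fresh LSCs against 164, 148 and 157 CPM in preconditioned LSCs, with a log2 fold change of −0.47 (SE 0.10, adjusted p = 0.0479 in edgeR). RPS6KB1, which encodes an S6 kinase, had 53.2, 50.2 and 53.8 CPM across the fresh replicates and 40.02, 33.7 and 36.5 CPM across the preconditioned replicates and a log2 fold change of −0.51 (SE 0.11, adjusted p = 0.0486 in edgeR). RHEB, the activator of mTORC1, stood at a log2 fold change of 0.47 (adjusted p = 0.0606 in edgeR). MYC, which drives transcription of ribosomal protein and assembly genes, had 107, 127 and 92.5 CPM in the fresh libraries and 135, 94.1 and 119 CPM in the preconditioned libraries, and its groups overlapped. GRWD1, the chaperone of RPL3, had a log2 fold change of −0.36 (SE 0.30). MDM2 had no gene of that symbol in the table analysed here.

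The ribosomal proteins of mitochondria, which are encoded in the nucleus but form a separate ribosome, stood at the level of the rest of the genes tested. Their 75 genes had a median log2 fold change of 0.01, as over all genes tested, with 39 above 0 and 36 below. In edgeR's test 1 was higher (MRPL42, 0.51) and 1 lower (MRPL17, −1.33), against 2.88% and 2.2% of all genes. The groups did not overlap in 11 higher and 8 lower genes of the 75, against 17.9% and 18.8%. Their summed CPM was 2374 to 2513 in the fresh libraries and 2300 to 2676 in the preconditioned libraries, which overlapped.

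**Figure D5:**
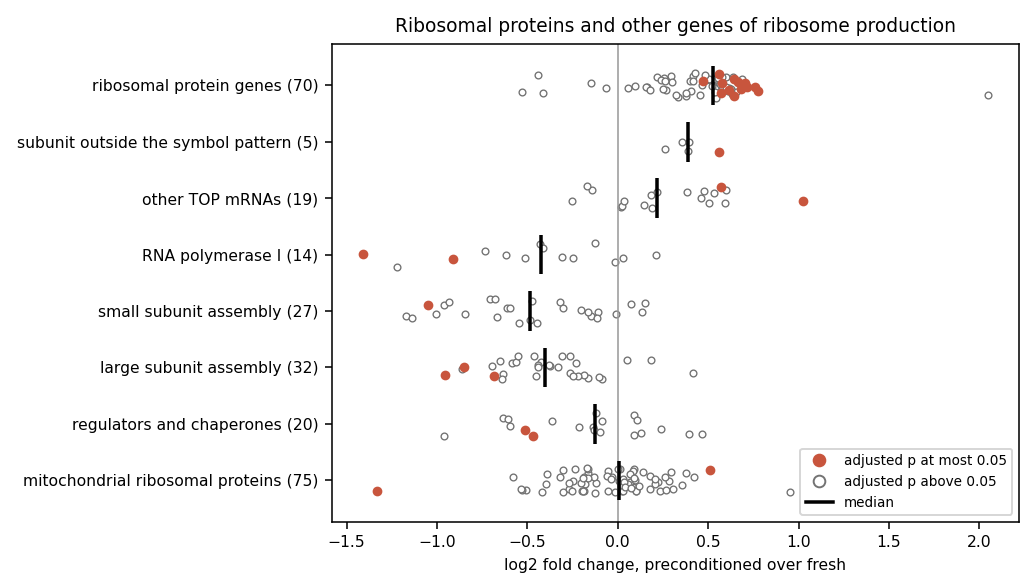
Log2 fold change (preconditioned over fresh, x axis) of the ribosomal protein genes and of 7 other lists of genes (number tested in brackets), with filled points for genes past an adjusted p of 0.05 and a bar at each median. The median was 0.52 for the ribosomal protein genes, −0.42, −0.49 and −0.40 for RNA polymerase I and the small-subunit and large-subunit assembly factors, and 0.01 for the mitochondrial ribosomal proteins.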

How the data were processed

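The authors aligned reads of polyA RNA with hisat2 and counted them per gene with htseq-count. The counts were deposited by the authors as whole, unscaled numbers, and the deposited FPKM values were found to be the count over the total of the library and over 1 length per gene. The genome build, annotation, strand setting and length definition are not given in the sources used here. For RNA extraction, the sample labels name TRIzol and the methods an Omega kit. htseq-count leaves out by default reads that align equally well to several genes, which lowers the counts of genes with near-identical copies, and whether the default was used is not given. No sequence or coordinate is printed, because no genome of a named build was used. Of 377 gene identifiers of the ribosomal protein and LOC genes, 304 were found in RefSeq's rabbit table (mOryCun1.1), used for names only.

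Counts were tested in R 4.3.3 with edgeR 4.0.16 (filterByExpr, TMM, robust quasi-likelihood fit, condition as the only factor) over 15029 genes, with Benjamini-Hochberg adjustment over all of them. The SE of a log2 fold change was derived from the F statistic. Symbols were matched to the stated pattern, and LOC genes by their description. The fits were also run on simulated counts, whose outcome is not given here and was not used for the calls. With 3 libraries per group, the precision rests on the spread between these libraries. How depth changes it was not tested, and genes near the floor of 3 counts were not tested.

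The members and the lists were chosen with earlier results of these data known. The genes named were those past the cutoffs (at most 12 by p), the 5 with the largest and the 5 with the smallest log2 fold change, the 5 with the highest mean FPKM, paralog pairs, stalk and MDM2-binding proteins, RPS6, proteins whose symbol share spanned over 20 percentage points with LOC genes holding at least 5% of their counts, subunits outside the pattern, and, per other list, genes past both cutoffs, the 3 with the smallest p and MYC, LARP1, MDM2 and GRWD1. Genes named outside this rule are the cell type and proliferation markers, RPL15, WDR12, EIF3A, HNRNPA1, NPM1, MRPL17, MRPL42 and the LOC genes so marked. Alternatives were DESeq2 1.42.0, its size factors, library size alone, scaling without ribosomal protein genes, filters of 10 summed counts or of a CPM of 1 in 3 libraries, the replicate number as a block, limma 3.58.1 on log2(FPKM + 1), copies summed, and leaving out each library. Values of 3 genes that the rule would name are not reported here, although counts and medians over all genes of a list include them.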

Additional observations from a re-analysis of the deposited data

How the results depend on the processing

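The 13 ribosomal protein genes past an adjusted p of 0.05 became 41 with DESeq2's Wald test, 3 with library size alone, 3 with limma on log2(FPKM + 1), 0 with the replicate block and 0 to 53 when 1 library was left out. No gene also reached the fold cutoff under any of these settings. The median log2 fold change of 0.52 was 0.35 with library size alone and 0.35 on FPKM. Library size alone moved the median of all genes to −0.16, and relative to that the ribosomal protein genes stood at 0.51. The difference in their share of 1.10 percentage points became 2.05 on summed FPKM and 0.782 to 1.46 without 1 library. In the other lists of ribosome production, 3 higher and 8 lower genes became 10 and 23 with DESeq2, 1 and 19 with library size alone, 1 and 13 on FPKM, 0 and 0 with the block, and 0 to 12 and 0 to 55 without 1 library, and the filter of 10 summed counts left 5 lower. The replicate numbers come from the labels and share only a number, since deviations of same-numbered libraries correlated at −0.067, −0.073 and −0.109. Over all genes, 433 higher and 330 lower became 1473 and 1434 with DESeq2, 293 and 1047 with library size alone, 255 and 880 with limma on FPKM, 13 and 17 with the block, and 5 to 1739 and 9 to 2153 without 1 library. The number of proteins with a symbol share spanning over 20 percentage points was 5 to 7 without 1 library. At this depth, RPS9 and RPL3L among the 72 genes had at most 8 counts in any library and were not tested.

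Over 54 named genes and their alternatives, 595 of 810 values kept their side and direction, 158 lost the call, 41 gained it and 16 changed sign. RPL3 was at −0.11 with library size alone, −0.12 on FPKM and −0.074 to 0.16 without 1 library (below 0 without fresh replicate 3 or preconditioned replicate 3). MYC was at −0.072 with library size alone, −0.079 on FPKM and −0.041 to 0.22 without 1 library (below 0 without fresh replicate 3 or preconditioned replicate 1). RPS7 was at −0.46 with the block, −0.85 on FPKM and −0.17 to 0.82 without 1 library (below 0 without preconditioned replicate 1 or 2). RPS27A was at −0.060 on FPKM and −0.080 to 0.42 without 1 library (below 0 without preconditioned replicate 3). RPL17 was at 0.34 with copies summed and RPL26L1 at −0.31 to 0.14 without 1 library (above 0 without preconditioned replicate 3). The cause of these changes was not tested.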
